A study of Bos taurus with 14 samples.

Results

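FOS (ENSBTAG00000004322), CCN1 (ENSBTAG00000009844) and AMOTL2 (ENSBTAG00000000742) are 3 of the 27607 genes counted in the liver of newborn beef calves, and they were followed calf by calf. They were picked by name as genes already known to be lower in the calves of supplemented dams, so their group difference is given here as a description and without a test. The libraries came from 14 female calves, whose livers were sampled 30 h after birth. The CON group is 7 calves whose dams ate a basal diet. The VTM group is 7 calves whose dams ate the same diet with a vitamin and mineral premix, from 60 days before breeding through gestation. All dams were crossbred Angus-based heifers inseminated with semen of 1 bull, and every calf was taken from its dam before suckling, given colostrum replacer and then milk replacer by esophageal feeder, and killed by captive bolt and bleeding. Calves are named by diet and animal number, which does not pair calves between the groups, and CON calf 19 and VTM calf 10 are those the study left out for low alignment.

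FOS encodes a subunit of the AP-1 transcription factor and is the classic immediate early gene. Its mRNA appears within minutes of a growth factor, stress or injury signal, without new protein synthesis, and is degraded quickly. CCN1 (also called CYR61) encodes a secreted protein of the extracellular matrix that binds integrins, and it is both a rapidly induced gene and one of the most used readouts of YAP and TAZ, the co-activators that the Hippo kinase pathway keeps out of the nucleus. When YAP or TAZ enters the nucleus, on a stiff matrix or in a stretched cell for example, it works with TEAD factors on CCN1, CCN2 and AMOTL2. AMOTL2 encodes an angiomotin family protein of cell junctions that binds YAP and holds it in the cytoplasm, so it is both a target and an inhibitor of the pathway.

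Total counts lay between 13382264 and 20125409 per library, and levels are CPM, counts scaled to a common library size by TMM over the 14 libraries. In bulk tissue, fewer cells of a type and less RNA per cell cannot be told apart. The hepatocyte genes AHSG and TTR, which encode secreted plasma proteins, were high in every library, with AHSG at 4281 CPM or more and TTR at 109.2 CPM or more. VTM calf 40 stood apart from the rest of the libraries, because 15395 genes had 0 counts and 318 had 1 to 9 counts. Of the 1580 genes that the other 13 libraries placed at 50 to 100 counts in it, 17.2% had 0 counts, against at most 1.67% in any other library. Mitochondrial genes took 18.1% of the counts in CON calf 31, 8.57% in CON calf 25 and 4.31% or less in the other calves.

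FOS stood high in 1 calf. In the CON group it was at 24.3 CPM in calf 13, 8.64 CPM in calf 37, 6.60 CPM in calf 19, 5.58 CPM in calf 31, 4.98 CPM in calf 7, 4.22 CPM in calf 25 and 3.91 CPM in calf 1. In the VTM group it was at 5.34 CPM in calf 34, 4.21 CPM in calf 4, 4.03 CPM in calf 10, 3.42 CPM in calf 16, 3.09 CPM in calf 22, 2.73 CPM in calf 28 and 0 in calf 40. The groups overlapped in the range where most calves lay, with 4 CON calves above every VTM calf and 4 VTM calves below every CON calf. The mean was 8.32 ± 7.24 CPM in CON and 3.26 ± 1.67 CPM in VTM (SD, n = 7 each), and without CON calf 13 the CON mean was 5.65 ± 1.76 CPM (SD, n = 6).

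The 413 FOS counts of CON calf 13 put its level between 22.04 and 26.8 CPM (exact Poisson 95% interval, counting error only). That level was 2.82 times that of the next calf and 5.77 times the median of the 14 calves. Of the 13311 genes with a level, 98 (0.736%) had a highest library at least as far above the next one. Among these, 41 had their highest value in VTM calf 40 and 33 in CON calf 31, while FOS was the only 1 with its highest value in CON calf 13. The library of CON calf 13 had 11249 genes at 0 counts and 2.27% mitochondrial counts, both within the range of the other libraries. This calf was also in place 3 for CCN1 and AMOTL2. Below it, no other neighbouring calves in the order of FOS levels had separate counting intervals, apart from VTM calf 28 above VTM calf 40.

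The 0 for FOS in VTM calf 40 came from a library with many missing genes. At the depth of that library the median of the other 13 calves corresponds to 69.9 FOS counts, and the limit that a count of 0 allows is 3 counts, or 0.181 CPM. CCN2, the connective tissue growth factor gene and another YAP target, also had 0 counts there where 81.5 were predicted, and so did TEAD1, which encodes a TEAD factor, where 44.5 were predicted. TEAD1 also had 0 counts in CON calf 31 and 8 in CON calf 25. CCN1 and AMOTL2 were counted in the same library, at 113 and 326 counts, where 228 and 467 were predicted. The part of the library in these values was not tested.

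**Figure D1:**
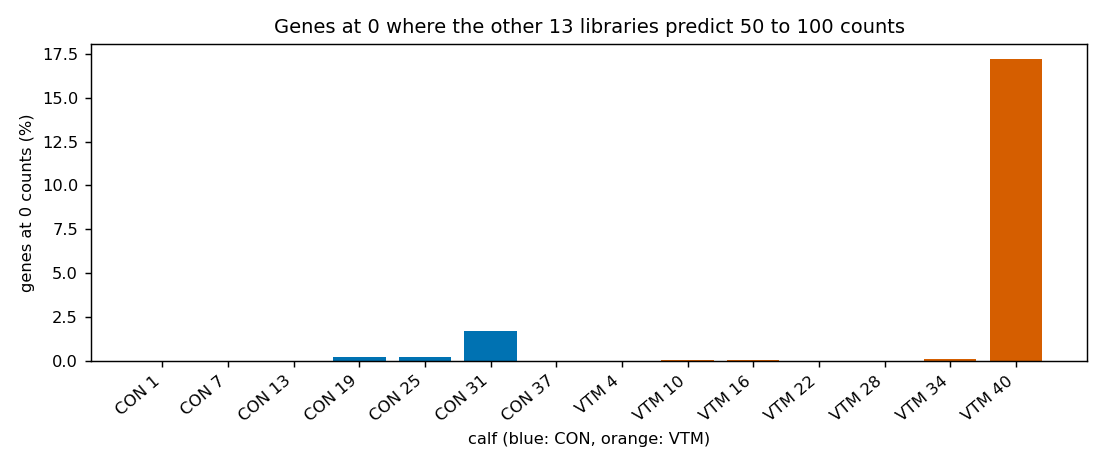
Percent of genes with 0 counts in each library (y axis) among those that the other 13 libraries place at 50 to 100 counts there, the range of FOS and CCN2; blue bars are CON calves and orange bars VTM calves on the x axis. VTM calf 40 is at 17.2% and no other library is above 1.67%.

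CCN1 was spread over a wide range in CON and a low one in VTM. In the CON group it was at 44.7 CPM in calf 7, 33.0 CPM in calf 37, 25.8 CPM in calf 13, 19.1 CPM in calf 25, 14.2 CPM in calf 31, 13.7 CPM in calf 1 and 12.4 CPM in calf 19. In the VTM group it was at 13.8 CPM in calf 28, 13.6 CPM in calf 10, 12.3 CPM in calf 34, 11.3 CPM in calf 16, 7.23 CPM in calf 4, 6.82 CPM in calf 40 and 4.68 CPM in calf 22. High values were thus held by several CON calves and not by a single one, and 5 CON calves were above every VTM calf. The mean was 23.3 ± 12.03 CPM in CON and 9.96 ± 3.66 CPM in VTM (SD, n = 7 each). In the order of levels each of the 4 highest calves had a counting interval above that of the next calf, and the last such step lay between VTM calf 16 and VTM calf 4.

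Whether the groups overlapped in CCN1 turned on a margin smaller than the counting error. Over all 14 calves they did, since CON calf 19 lay within the VTM range. In the 12 calves of the study, the lowest CON calf (calf 1) was at 13.59 CPM and the highest VTM calf (calf 28) at 13.53 CPM when the scaling was computed on those 12 libraries. With the scaling of all 14 libraries the same calves were at 13.74 and 13.84 CPM, in the opposite order. Of the 13307 genes tested in the 12 calves, 16 (0.12%) had every VTM calf below every CON calf, CCN1 among them, and AMOTL2 and FOS were not.

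Relative to its mean, AMOTL2 varied least of the 3 genes, with a coefficient of variation of 27.7% in CON and 18.9% in VTM, against 51.7% and 36.8% for CCN1 and 87.0% and 51.3% for FOS. In the CON group it was at 53.6 CPM in calf 7, 43.9 CPM in calf 37, 38.2 CPM in calf 13, 37.8 CPM in calf 19, 34.9 CPM in calf 1, 26.5 CPM in calf 31 and 23.3 CPM in calf 25. In the VTM group it was at 29.9 CPM in calf 10, 28.2 CPM in calf 16, 28.1 CPM in calf 34, 27.7 CPM in calf 28, 21.2 CPM in calf 22, 19.7 CPM in calf 40 and 18.8 CPM in calf 4. CON calves 25 and 31 lay within the VTM range and the other 5 CON calves were above it. The mean was 36.9 ± 10.2 CPM in CON and 24.8 ± 4.69 CPM in VTM (SD, n = 7 each). Of the 13 neighbouring pairs in the order of levels, only CON calf 7 over CON calf 37 had separate counting intervals.

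**Figure D2:**
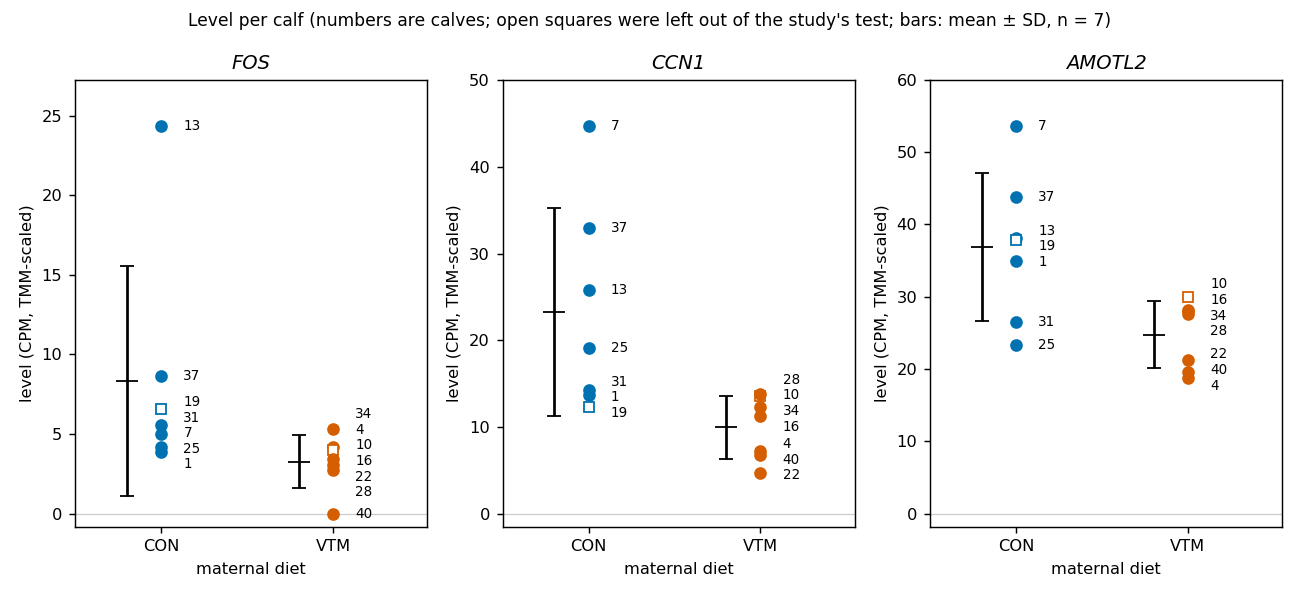
Level of FOS, CCN1 and AMOTL2 (y axis, CPM after TMM scaling) in each calf by maternal diet (x axis); numbers are calves, open squares the 2 calves left out by the study, and bars the mean ± SD of 7 calves. FOS is high in CON calf 13 alone, at 24.3 CPM, while CON calves 7, 37 and 13 lead CCN1 and AMOTL2.

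The biological coefficient of variation that edgeR fitted for the 12 calves was 80.5% for FOS, 39.8% for CCN1 and 26.0% for AMOTL2, and its median over the 13307 genes was 33.3%. The dispersion of FOS was higher than that of 93.1% of the genes, that of CCN1 higher than 62.3% and that of AMOTL2 higher than 29.5%. In this fit FOS thus varied more between calves of a group than most genes did, and AMOTL2 less. The FOS value includes the 0 of VTM calf 40, and without that calf the SE of its log2 fold change was 0.47, against 0.68 with it. The genes were not matched by level, and the median level of FOS was above that of 25.7% of genes and that of AMOTL2 above 70.4%.

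As log2 fold changes of VTM relative to CON in the 12 calves, FOS was at -1.46 (SE 0.68), CCN1 at -1.42 (SE 0.33) and AMOTL2 at -0.62 (SE 0.20). The study set its threshold at 0.05 for the unadjusted p and 0.5 for the size of the log2 fold change, and with edgeR 379 of 13307 genes (2.85%) were lower in VTM by it. CCN1 and AMOTL2 were among them and FOS was not, and since the genes were picked on this contrast nothing is read from these calls. FOS was past the threshold at about the same fold with DESeq2 (-1.46), with no filter on low counts (-1.46) and over all 14 calves (-1.35). It was not past it with RLE scaling in place of TMM (-1.46). Without CON calves 1 and 25, both under 90% aligned, it was past it at -1.79. Leaving out 1 calf at a time, FOS was past it in 6 of 12 fits. CCN1 was past it in all 12 of those fits, and AMOTL2 in 11, the exception being the fit without CON calf 7. At an adjusted p of at most 0.05 edgeR called 0 genes, with 690 at an unadjusted p of at most 0.05, and DESeq2 called 0 as well, with 880. Over all 14 calves the value was -1.23 for CCN1 and -0.57 for AMOTL2.

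The calf that weighed most differed between FOS and the YAP targets. With each calf left out in turn, FOS ranged from -1.68 to -0.80, the latter without CON calf 13. CCN1 ranged from -1.57 to -1.19 and AMOTL2 from -0.72 to -0.48, and for both the value nearest to 0 was the one without CON calf 7. In the 2 calves that the study left out, FOS was at 6.60 CPM in CON calf 19 and 4.03 CPM in VTM calf 10, AMOTL2 at 37.8 and 29.9 CPM, and CCN1 at 12.4 and 13.6 CPM, so that CCN1 was not lower in the VTM calf of this pair.

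**Figure D3:**
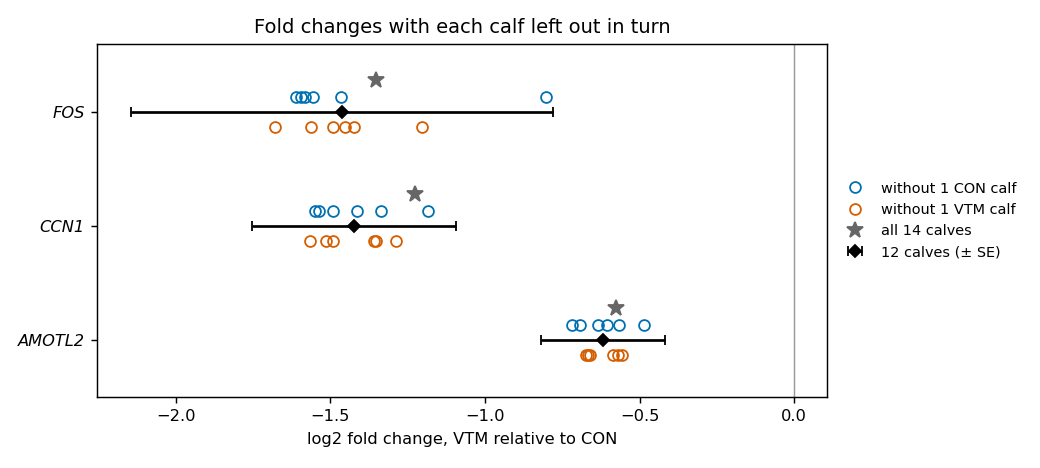
Log2 fold change of VTM relative to CON (x axis) for FOS, CCN1 and AMOTL2 (rows) in the 12 calves (diamond, ± SE), in all 14 calves (star) and without 1 calf (open circles, blue without a CON calf and orange without a VTM calf). For FOS the fit without CON calf 13, at -0.80, lies apart from the rest.

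The highest calves of CCN1 and AMOTL2 were the same and those of FOS were partly others. CON calves 7, 37 and 13 held places 1, 2 and 3 for both CCN1 and AMOTL2. FOS had CON calves 13, 37 and 19 in these places, and CON calf 7, the highest in both YAP targets, was in place 6 for FOS at 4.98 CPM. CON calf 37 was in place 2 for all 3 genes. Away from these calves the YAP targets also parted, since CON calf 25 was in place 4 for CCN1 and 11 for AMOTL2, and CON calf 19 was in place 9 for CCN1 and 4 for AMOTL2.

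Among the VTM calves, CCN1 and AMOTL2 fell into the same low and high sets. Calves 4, 22 and 40 were at 7.23 CPM or less for CCN1 and 21.2 CPM or less for AMOTL2, and calves 10, 16, 28 and 34 were at 11.3 CPM or more and 27.7 CPM or more. FOS did not follow this division, since calf 4 was the second highest VTM calf for FOS and calf 28 the second lowest. This division was seen in the values and was not tested. In calves 4, 22 and 40 the summed level of the 5 mesenchymal markers was 1586 to 1928 CPM and that of the 3 cholangiocyte markers 27.0 to 43.0 CPM, and in the other 4 they were 1363 to 2713 CPM and 36.4 to 80.9 CPM. The part of these cells in the division was not tested.

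**Figure D4:**
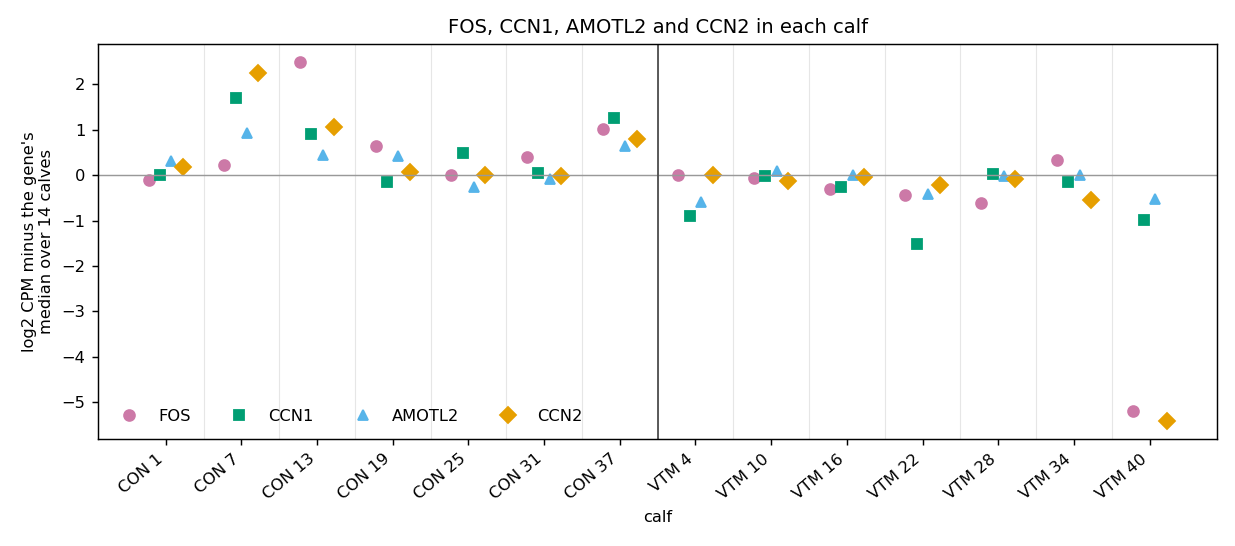
Log2 CPM minus the gene's median over 14 calves (y axis) for FOS, CCN1, AMOTL2 and CCN2 in each calf (x axis; CON left of the line, VTM right of it). CON calf 13 is highest in FOS, CON calf 7 in the other 3 genes, and VTM calf 40 has FOS and CCN2 far below the rest because both had 0 counts.

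To ask whether the genes rose in the same libraries apart from the diet groups, log2 CPM (prior count 2) was compared after the mean of each group was subtracted. CCN1 and AMOTL2 had a Pearson r of 0.73 over 14 calves (permutation within groups, 2-sided, p = 0.00696, adjusted p = 0.0626 over 9 relations) and a Spearman rho of 0.74 (permutation p = 0.00677, adjusted p = 0.0609). The relation did not pass the correction for the 9 relations, and without CON calf 7 and VTM calf 22, the calves farthest from the median of CCN1, r was 0.63. It passed the correction in the 12 calves of the study, at an r of 0.80 (permutation, adjusted p = 0.0463). Within CON alone r was 0.66 and rho was 0.64 (exact permutation tests, n = 7, p = 0.116 and 0.139, adjusted p = 0.347 and 0.50), and without CON calves 7 and 37 r was -0.02, so the relation within CON rested on those calves. Within VTM r was 0.86 and rho was 0.61 (exact permutation tests, n = 7, p = 0.0240 and 0.167, adjusted p = 0.108 and 0.50), and without VTM calves 22 and 40 r was 0.95. The VTM calves lay in the separate sets of 3 and 4 described above, so this r holds the gap between the sets, and the relation inside a set could not be tested.

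For FOS and CCN1, r was 0.29 and rho 0.26 over the 14 calves (permutation p = 0.336 and 0.369, adjusted p = 0.503 and 0.553). For FOS and AMOTL2, r was 0.34 and rho 0.31 (permutation p = 0.212 and 0.265, adjusted p = 0.454 and 0.544). Neither was distinguishable from 0 with 14 calves, and without CON calf 13 and VTM calf 40, the calves farthest from the median of FOS, r was 0.22 and 0.27. Within CON, FOS had an r of 0.27 and a rho of 0.25 with CCN1 (exact permutation tests, n = 7, p = 0.594 and 0.595, adjusted p = 0.594 and 0.662), and r was -0.18 without CON calves 13 and 37. With AMOTL2 within CON, r was 0.26 and rho 0.46 (exact permutation tests, n = 7, p = 0.572 and 0.302, adjusted p = 0.594 and 0.544), and r was 0.21 without those calves. Within VTM, FOS had an r of 0.35 and a rho of 0.21 with CCN1 and an r of 0.48 and a rho of 0.25 with AMOTL2 (exact permutation tests, n = 7, lowest p = 0.252, lowest adjusted p = 0.454). Without VTM calves 34 and 40 these r were -0.03 and -0.25, so they rested on those calves. The difference between the correlation of the YAP targets with each other and their correlations with FOS was not tested.

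**Figure D5:**
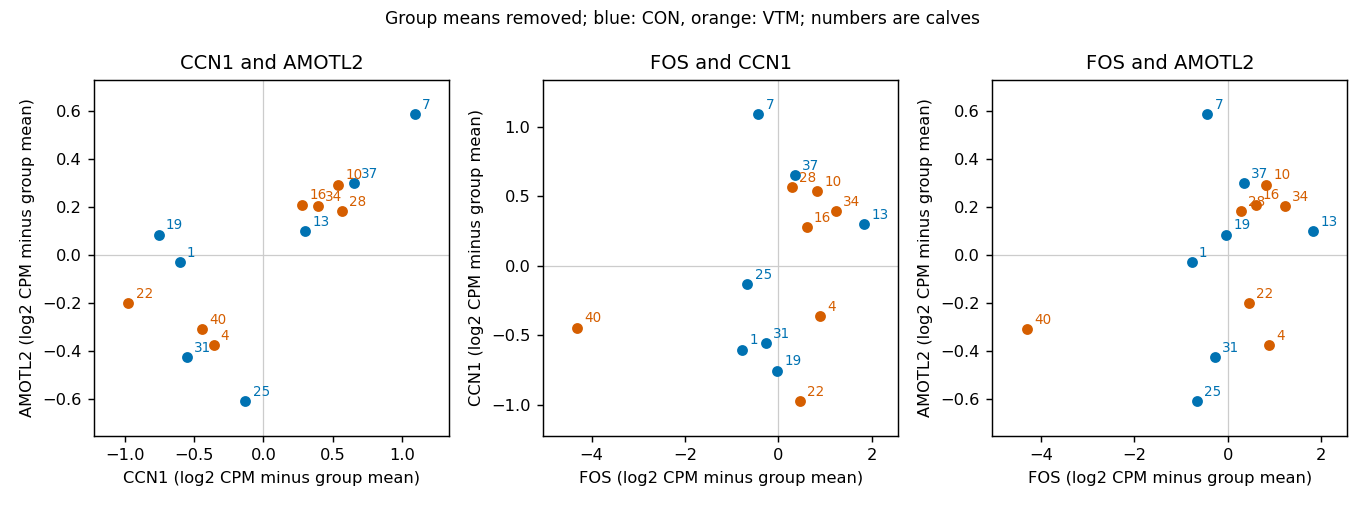
Log2 CPM minus the group mean for each pair of genes, with CCN1 or FOS on the x axis and AMOTL2 or CCN1 on the y axis; each point is a calf, blue for CON and orange for VTM, with its number. CCN1 and AMOTL2 have an r of 0.73, which did not pass the correction for 9 relations. In both plots with FOS the points of VTM calf 40 and CON calf 13 lie at the far left and right.

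In a ranking of the 13310 other genes by Spearman rho over the 14 calves, group means removed, AMOTL2 was 71st for CCN1, with 0.526% of genes above it, and CCN1 was 78th for AMOTL2. CCN1 was 3440th and AMOTL2 2587th for FOS. The 5 genes most like each member carry no symbol in the tables used here, and their rho was 0.81 to 0.88 for FOS, 0.84 to 0.88 for CCN1 and 0.86 to 0.94 for AMOTL2. Among the 624 genes with a symbol, those most like CCN1 were COL1A1, the main chain of type I collagen, with a rho of 0.84, and COL6A2, a type VI collagen chain, with 0.83. For AMOTL2 it was ZFTA with a rho of 0.75, and for FOS it was SAPCD2 with 0.71. These are ranks over 14 libraries, with no test. The symbols come from the study's tables, which favours genes that differed in these calves.

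CCN2 was nearest to the 3 genes by known regulation. In the CON group it was at 23.6 CPM in calf 7, 10.4 CPM in calf 13, 8.54 CPM in calf 37, 5.55 CPM in calf 1, 5.11 CPM in calf 19, 4.92 CPM in calf 25 and 4.85 CPM in calf 31. In the VTM group it lay between 3.32 and 4.94 CPM in 6 calves and at 0 in calf 40. Its highest calves were those of CCN1 and AMOTL2, with calf 7 far above the rest. The log2 fold change was -1.41 (SE 0.64, adjusted p = 0.791 with edgeR), past the study's threshold in the 12 calves. It was past it in only 4 of 12 fits without 1 calf, being lost at -0.92 without CON calf 7 and at -1.51 to -1.38 without CON calf 13 or 37 or VTM calf 4, 16, 22, 28 or 34.

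CCN2 was compared with the members in the same way after its values had been seen. Within CON its r was 0.89 with CCN1 and 0.81 with AMOTL2 (exact permutation tests, n = 7, p = 0.00853 and 0.0208, adjusted p = 0.0625 for both over another 9 relations), and the rho was 0.68 and 0.89 (exact permutation p = 0.110 and 0.0123, adjusted p = 0.197 and 0.111). Without CON calves 7 and 13, the farthest from the median of CCN2, r was 0.85 and 0.75. Over the 14 calves CCN2 and FOS had an r of 0.86 and a rho of 0.52 (permutation p = 0.0353 and 0.0770, adjusted p = 0.0795 and 0.173). That r rested on VTM calf 40, where both genes had 0 counts, and was 0.19 without it. Without both VTM calf 40 and CON calf 7, it was 0.68. Within CON, CCN2 and FOS had an r of 0.25 and a rho of 0.29 (exact permutation tests, n = 7, p = 0.559 and 0.556). Without CON calves 7 and 13 that r was 0.68, so the low value within CON also turned on single calves. With CCN1, r over the 14 calves was 0.45 and with AMOTL2 it was 0.50 (permutation p = 0.0645 and 0.0145, adjusted p = 0.116 and 0.0625).

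Other genes of these pathways could be named only where the study's tables pair a symbol with an identifier, which favours genes that differed in these calves. This left 2 of 37 listed immediate early genes (FOS and CCN1), 3 of 22 YAP and TEAD targets (CCN1, CCN2 and AMOTL2), 1 of 17 Hippo pathway genes (TEAD1) and 3 of 16 SRF and actin genes (TAGLN, TPM2 and CAVIN1). TAGLN and TPM2, which encode actin-binding proteins of contractile cells, were past the study's threshold at log2 fold changes of -0.73 (SE 0.28) and -0.69 (SE 0.27). CAVIN1, which encodes a coat protein of caveolae, was past it at -0.62 (SE 0.25) and CCN3, another CCN family gene, at -1.09 (SE 0.47), each with an adjusted p of 0.791 in edgeR. TEAD1 was not past it, at 0.24 (SE 0.86, edgeR adjusted p = 0.957). CON calf 7 was the highest calf for TAGLN, at 154 CPM, for TPM2, at 133 CPM, and for CAVIN1, at 189 CPM. For CAVIN1, CON calves 37 and 13 followed as they did for the YAP targets. They did not for the other genes, being in places 7 and 6 for TAGLN and 12 and 7 for TPM2. Without CON calf 7, TAGLN was at -0.45, CAVIN1 at -0.34, TPM2 at -0.51 and CCN3 at -1.10, none of them past the threshold. Over all 14 calves TAGLN (-0.56), TPM2 (-0.55) and CCN3 (-0.74) were not past it either. Of the 12 fits without 1 calf, TAGLN was past it in 11, CAVIN1 in 9 (also lost without VTM calf 16 or 22), TPM2 in 8 (also lost without VTM calf 22 or CON calf 25 or 31) and CCN3 in 7 (also lost without VTM calf 4 or 22 or CON calf 25 or 31).

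Of the marker sums of liver cell types, that of the mesenchymal cells had the same leading calves as the YAP targets. The markers used were those that the study's tables pair with an identifier, which favours genes that differed in these calves. The summed level of 5 of 10 listed mesenchymal and stellate markers (COL1A1, COL1A2, COL3A1, DCN and LRAT) was 1472 to 5066 CPM in CON (median 2234) and 1363 to 2713 CPM in VTM (median 1598). It was highest in CON calf 7 at 5066 CPM, then in CON calf 37 at 4767 CPM and CON calf 13 at 3536 CPM, which is the order of CCN1 and AMOTL2. COL3A1, COL1A1 and COL1A2 made most of this sum, with medians of 902, 510 and 376 CPM over the 14 calves. DCN had a median of 165 CPM and the stellate marker LRAT one of 12.2 CPM, so the sum mostly describes collagen. The study reported LRAT as upregulated in VTM, whereas the sum was lower in VTM by the medians. The sum of 2 of 11 endothelial markers (ROBO4 and EGFL7) was 36.6 to 209 CPM in CON and 45.9 to 68.1 CPM in VTM. It was led by CON calves 31 and 25, which were in places 10 and 11 for AMOTL2 but 5 and 4 for CCN1. EGFL7 made most of this sum, with a median of 50.3 CPM over the 14 calves against 13.1 CPM for ROBO4. ROBO4 alone was highest in CON calf 7, at 31.1 CPM, then in CON calf 37, at 27.6 CPM, as were CCN1 and AMOTL2. The sum of 2 of 10 hepatocyte markers (AHSG and TTR) was 4989 to 12353 CPM in CON (median 6105) and 6772 to 16262 CPM in VTM (median 11678), higher in VTM by the medians, where the 3 genes were lower. AHSG made most of this sum, with a median of 7007 CPM over the 14 calves against 474 CPM for TTR. TTR alone was highest in CON calf 31, at 2228 CPM, and CON calf 25, at 1523 CPM, so the sum mostly describes AHSG. The sum of 3 of 6 cholangiocyte markers (KRT19, KRT7 and SOX9) was 44.3 to 101 CPM in CON and 27.0 to 80.9 CPM in VTM, led by CON calves 37 and 7, and of the markers of these lists only SOX9 was at 0, in VTM calf 40. The part of these cell types in the levels of CCN1 and AMOTL2 was not tested, and macrophage, neutrophil, erythroid and mesothelial markers were not analysed here.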

How the data were processed

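Strand-specific liver RNA libraries of 14 calves were sequenced. After trimming, the authors mapped reads to ARS-UCD1.2 with STAR (2.7.5 per the submitters' processing notes), and the deposited values are raw counts for each Ensembl gene, neither normalized nor filtered. Which strand column of STAR was used is not given in the sources used here. Each calf is 1 replicate, grouped by the diet letter in its sample title. Symbols were paired with identifiers through the study's supplementary tables, for 629 genes.

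From the counts, levels (CPM) were computed with TMM scaling over the 14 libraries after filterByExpr. The groups were compared by the quasi-likelihood test of edgeR 4.0.16 in R 4.3.3, after filterByExpr and TMM, on the 12 calves that the study tested, and DESeq2 1.42.0 was an alternative. Correlations used log2 CPM, 100000 permutations within groups, or all 5040 pairings within a group, and Benjamini-Hochberg adjustment, in Python 3.11.15 with scipy 1.17.1. Both scripts were tested on simulated data. Intervals cover counting error only. The SE of an edgeR log2 fold change was derived from the test, as its absolute value divided by the square root of the F statistic.

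The 3 genes, the gene lists and the tests were chosen with earlier results of these data known. Genes named beside the members are those of the 4 pathway lists past the threshold, members of the CCN family, TEAD1, and the genes most like each member. Other listed genes had no identifier here, so pathway counts, pathway levels per calf and promoter sequence were not analysed. Alternatives were other scalings, filters, prior counts and samples, and each calf left out in turn.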

Additional observations from a re-analysis of the deposited data

Results flagged for a closer look

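In 18 groups of 7 calves (9 genes in 2 diets), 5 values lay apart from the rest of their group, by a gap to the nearest calf of more than 0.568 of the whole range. Chance flags about 1 in 20 groups where values are normally distributed, and the genes share the same libraries. The gaps were taken on CPM without a log, so which values are flagged depends on the scale. No excess over chance is read from these flags. FOS was at 24.3 CPM in CON calf 13, a gap of 0.768 of the range. CCN2 was at 23.6 CPM in CON calf 7, a gap of 0.706, and at 0 CPM in VTM calf 40, a gap of 0.673. CAVIN1 was at 189 CPM in CON calf 7, a gap of 0.664, and TAGLN was at 77.4 CPM in VTM calf 28, a gap of 0.605. No CCN1 or AMOTL2 value lay apart in this way, although CON calf 7 was the highest in both.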

How the results depend on the processing

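No paired analysis was possible because the groups share no animal number. FOS, CCN1 and AMOTL2 kept a negative log2 fold change in every fit with edgeR, DESeq2 or 1 calf left out, in which FOS ranged from -1.79 to -0.80, CCN1 from -1.65 to -1.19 and AMOTL2 from -0.76 to -0.48. The lowest value of each came from the fit without CON calves 1 and 25, both under 90% aligned. FOS, CCN2, CCN3 and TEAD1 have no value where at least 10 counts were required in every library, since each has under 10 counts in VTM calf 40, and TEAD1 also in CON calves 25 and 31. The planned counts of the 4 pathway lists and their alternatives were not run, since too few genes had an identifier. The number of genes past the study's threshold was 494 in the 12 calves, 1003 with no filter on low counts, where more genes were tested, and 275 over all 14 calves. Leaving out single calves gave 286 (CON calf 31), 305 (CON calf 25), 743 (CON calf 1) and 1039 (CON calf 37), the calves that moved the number by over 1.5 times, and the fits without 1 of the other calves lay within this range. Without CON calf 1, 2 genes had an adjusted p of at most 0.05 in edgeR. The cause of these shifts was not tested.

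The correlation of CCN1 and AMOTL2 passed the correction with total counts in place of TMM (r 0.78, adjusted p = 0.0255), in the 12 calves (r 0.80, adjusted p = 0.0463) and, chosen after seeing the data, without CON calf 19, VTM calf 10 and VTM calf 40 (r 0.79, adjusted p = 0.0487), all by permutation. With 1 calf left out r ranged from 0.63 to 0.83, and it passed without CON calf 19 (0.81) and without CON calf 25 (0.83). Neither correlation with FOS passed under any alternative run. TEAD1 ranged from -0.013 without CON calf 31, a change of sign, to 0.65 without CON calf 37. Within VTM, the correlations of CCN2 changed sign without VTM calf 40, and over single calves left out ranged from -0.57 to 0.99 with FOS, -0.082 to 0.63 with CCN1 and -0.29 to 0.73 with AMOTL2. FOS had 54 to 102 counts in 11 of the 14 libraries, so small differences between calves were not detectable at this depth.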
